A study of Mus musculus with 2 samples.

Results

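MicroRNA, small nucleolar RNA (snoRNA) and small Cajal body RNA (scaRNA) loci were examined in eosinophils of the mouse colon. The members were the noncoding RefSeq rows of the expression table (identifiers that begin with NR) whose symbol begins with Mir and a digit, Mirlet, Snora, Snord or Scarna. There were 883 such rows of 31295, and they name 782 genes. They comprised 733 microRNA rows, 37 rows of H/ACA snoRNAs (Snora), 104 rows of C/D snoRNAs (Snord) and 9 scaRNA rows. The eosinophils, a kind of granulocyte, had been taken from the colons of naive wild-type C57BL6 mice by enzymatic digestion and flow sorting. The 2 samples form 1 group, and each was made into 3 technical CEL-Seq libraries with different primer pools. No treatment, genotype or age contrast was included, and age, mouse and cell numbers and the sort gate are not stated in the sources used here.

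MicroRNAs are cut in 2 steps from long primary transcripts: Drosha with Dgcr8 releases a hairpin in the nucleus, and Dicer1 trims it to a short RNA that is loaded onto an Argonaute protein. The seed, bases 2 to 8 of the mature microRNA, pairs with target messages. Most snoRNAs are trimmed out of introns of ribosomal protein, translation factor or Snhg host genes. C/D snoRNAs guide ribose methylation of ribosomal RNA, H/ACA snoRNAs guide pseudouridylation, and scaRNAs do both on spliceosomal RNAs in Cajal bodies. None of these short RNAs normally carries a poly(A) tail, whereas CEL-Seq primes on poly(A) and reads a tag near the 3′ end of the primed molecule. A read over a member row is therefore a tag over that interval and not a measure of the mature small RNA.

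The mature microRNAs below belong to 2 host transcripts, Mir22hg and Mir17hg, whose rows match the symbol pattern, and to microRNAs known from granulocytes or from the Dleu2 host. They are given 5′ to 3′ from RefSeq (GRCm38.p6), with the seed in capitals. The first is the microRNA of Mir22hg, and the next 6 are those of the Mir17hg cluster.
miR-22-3p: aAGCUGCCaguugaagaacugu
miR-17-5p: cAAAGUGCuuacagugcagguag
miR-20a-5p: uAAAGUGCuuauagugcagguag
miR-18a-5p: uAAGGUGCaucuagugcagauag
miR-19a-3p: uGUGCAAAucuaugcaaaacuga
miR-19b-3p: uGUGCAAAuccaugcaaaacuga
miR-92a-3p: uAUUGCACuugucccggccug
miR-223-3p: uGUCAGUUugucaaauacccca
miR-142a-5p: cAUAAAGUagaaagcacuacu
miR-142a-3p: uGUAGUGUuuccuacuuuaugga
miR-221-3p: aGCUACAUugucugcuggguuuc
miR-222-3p: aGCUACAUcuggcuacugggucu
miR-21a-5p: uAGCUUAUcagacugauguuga
miR-155-5p: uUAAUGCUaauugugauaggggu
miR-15a-5p: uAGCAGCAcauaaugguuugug
miR-16-5p: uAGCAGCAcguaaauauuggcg
By seed, miR-17-5p and miR-20a-5p form 1 family, and the 6 member genes with that seed held 0 reads together. The seed of miR-18a-5p differs from theirs, and miR-19a-3p and miR-19b-3p share a seed of their own. miR-221-3p and miR-222-3p share a seed that 3 member genes carry, and these held 1 read together. The 7 member genes with the seed of miR-15a-5p and miR-16-5p held 0 reads. Of the 663 microRNA genes, 551 were found in the RefSeq sequence table.

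Next stand mature microRNAs with a row of that name that held 6 reads or more, in the same notation. Mir684-1, with 161 reads on 1 of its rows, is not printed. The first 2 are ones whose row placement or shared sequence is described below, and the Mir544 row with reads is not at the gene.
miR-703: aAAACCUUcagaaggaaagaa
miR-544-3p: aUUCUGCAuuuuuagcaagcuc
miR-1931: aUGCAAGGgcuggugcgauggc
miR-1249-3p: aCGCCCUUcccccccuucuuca
Each of these 4 seeds belonged to 1 member gene.

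For the snoRNAs, the full RNA of the H/ACA and C/D loci that lay inside a host row and held 4 reads or more is given from GENCODE M21 (mm10). Capitals mark the ACA near the 3′ end of an H/ACA snoRNA, and TGATGA (box C) and CTGA (box D) of a C/D snoRNA.
Snora78: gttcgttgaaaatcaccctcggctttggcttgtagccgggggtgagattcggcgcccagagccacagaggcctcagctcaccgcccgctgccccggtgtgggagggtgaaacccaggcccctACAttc
Snora31: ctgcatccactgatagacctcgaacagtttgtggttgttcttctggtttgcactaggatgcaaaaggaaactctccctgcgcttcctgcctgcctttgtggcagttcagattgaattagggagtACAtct
Snord47: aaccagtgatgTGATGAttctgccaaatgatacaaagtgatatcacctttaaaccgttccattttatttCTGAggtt
Snord65: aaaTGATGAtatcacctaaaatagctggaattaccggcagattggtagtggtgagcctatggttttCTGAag
These letters were searched on the strand of the RNA. TGATGA stood in the first 20 bases of 63.0% of 73 C/D sequences and of 0% of 36 H/ACA sequences. CTGA stood in the last 15 bases of 90.4% of the C/D and 5.56% of the H/ACA sequences, and ACA in the last 7 bases of 94.4% of the H/ACA and 5.48% of the C/D sequences. The class given by the symbol thus matched the box letters in most members with a sequence.

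Each row of the table carries 1 read total, which is the mean over the 6 libraries, and 1 RPKM (reads per 1000000 reads and kilobase of transcript). Read totals are given here times 6, as a sum over the libraries. Their intervals are exact Poisson intervals at 95% and cover counting error only. The values are the authors' means over both samples, so they carry no SD, n or test. The 6 library depths, recovered from rows with a single read, were 1892486, 2070936, 2100580, 2396563, 4343108 and 4752358 reads. They sum to 17556031 reads, and 8096526 reads (46.1%) lay on the rows of the table. For a count of 0 a one-sided upper limit of 3 reads was used, or 0.371 reads per 1000000 reads on rows (RPM); the two-sided interval at 0 ends at 3.69 reads.

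Small RNA loci were nearly empty in these libraries. Of the 883 member rows, 33 (3.74%, exact 95% binomial interval 2.59 to 5.21) held 1 read or more and 850 held none. A read was found on 59.4% of all rows of the table, on 62.6% of the protein-coding rows and on 45.9% of the other noncoding rows. The 30 other rows of 300 bases or less had a read in 10% of cases, that is in 3 rows. Within the members, 16 of the 33 rows rested on a single read. The members together held 959 reads, 0.0118% (0.0111 to 0.0126) of the reads on rows, and 592 of these lay on 1 row.

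By class, reads were found on 19 of 733 microRNA rows (2.59%, 1.57 to 4.02), 7 of 37 H/ACA rows (18.9%, 7.96 to 35.2), 5 of 104 C/D rows (4.81%, 1.58 to 10.9) and 2 of 9 scaRNA rows (22.2%). The microRNA rows held 895 reads and the snoRNA and scaRNA rows 64. The intervals of the H/ACA and the microRNA rows did not overlap, but rows share hosts and libraries and are not independent, so no test was made. In 18 of the 883 member rows the RPKM was 1 or more, against 8127 of all 31295 rows of the table (26%). This limit is not alike for both sets, because most member rows are short. A single read passed it in Mir3083 (RPKM 1.38), Snord87 (1.07) and Snord55 (1.02).

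**Figure D1:**
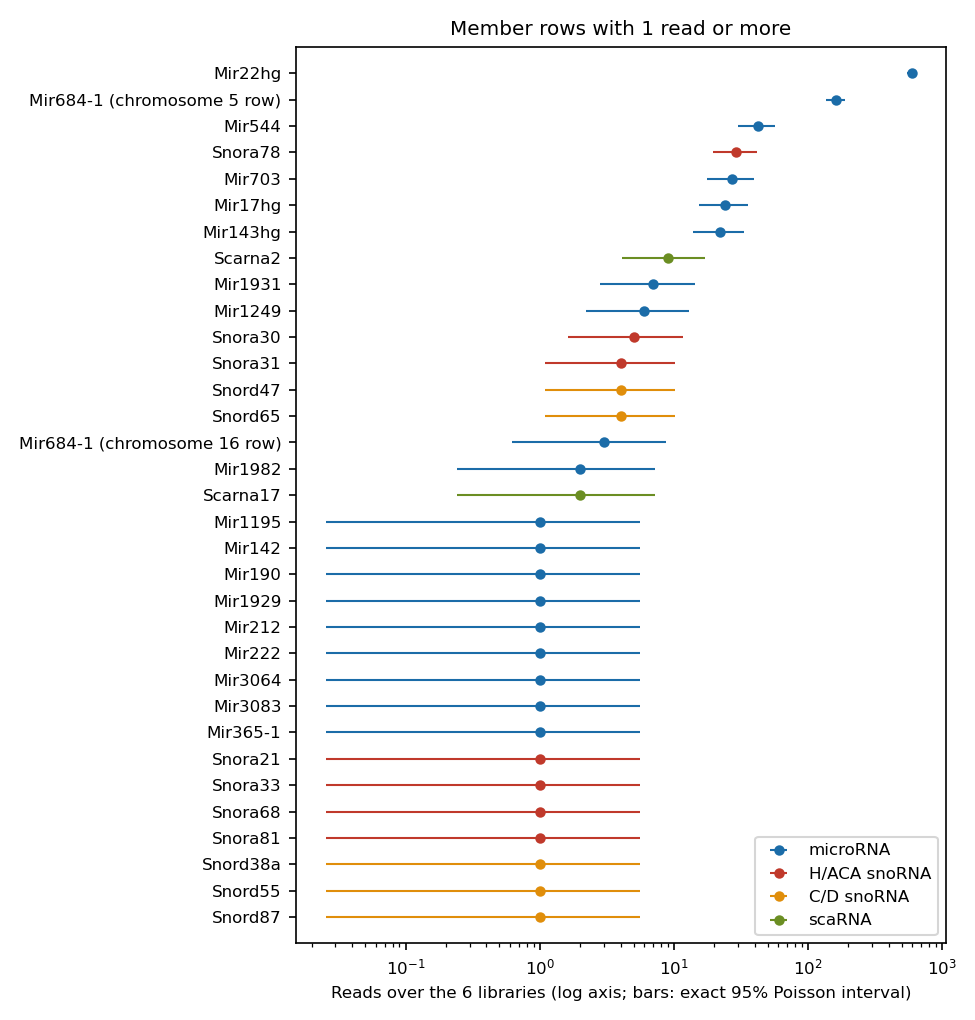
Reads over the 6 libraries (log axis) for the 33 member rows with a read, coloured by class, with exact 95% Poisson intervals as bars. Mir22hg stands at 592 reads, 6 further rows lie between 22 and 161, and 16 rows stand at a single read.

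The symbols of 3 long host transcripts match the same pattern, and 1 of them held the most reads of all members. Mir22hg, the spliced noncoding transcript that carries Mir22, held 592 reads (545 to 642), a mean of 98.7 per library and an RPKM of 20.2. Its row lies at chr11:75461539-75466690 on the plus strand in mm10 and spans 5152 bases. Mir22 itself lies wholly inside that row and held 0 reads. The nearest row on the same strand, Tlcd2, lies 1389 bases away and held 1 read.

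Mir17hg, the host of the Mir17 to Mir92 cluster, held 24 reads (15.4 to 35.7) at an RPKM of 0.701. Its row, chr14:115044390-115046728 on the plus strand, covers Mir92-1 whole and Mir19b-1 in part, while Mir17, Mir18, Mir19a and Mir20a lie before its start. All 6 of these microRNA rows held 0 reads. Mir143hg, now named Carmn, held 22 reads (13.8 to 33.3) at an RPKM of 0.588 over a span of 19661 bases on chromosome 18, and Mir143 and Mir145 inside it held 0. Without these 3 rows, 30 of 880 rows had a read (3.41%, 2.31 to 4.83) and the members held 321 reads. The host transcript was thus read in all 3 of these cases while the 9 microRNA rows it gives rise to were at 0. Of all 733 microRNA rows, 714 held no read, so these 9 rows did not stand out. How reads that overlap several rows were counted is not stated in the sources used here.

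Mir143 and Mir145 are known from smooth muscle, and messages of other colonic cells were present in the sorted samples. By RPKM, the 5 fibroblast and smooth muscle markers lay between 6.85 (Tagln) and 66.7 (Col3a1), with Acta2, smooth muscle actin, at 34.8. The 5 epithelial markers lay between 5.09 (Cdh1) and 89.3 (Epcam). Among 6 eosinophil markers, the eotaxin receptor Ccr3 stood at 155, Siglecf at 77.9 and the granule protein Prg2 at 74.3, while the peroxidase Epx stood at 0.265. The part of other cells in the Mir143hg reads was not tested. In bulk samples fewer cells of a type and less RNA per cell cannot be told apart.

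The 3 microRNA rows with the most reads after Mir22hg were rows whose position or sequence points to more than 1 place. Mir684-1 is placed at 9 positions in the table. Its row at chr5:24257528-24257612 on the plus strand held 161 reads (137 to 188), a mean of 26.8 per library and an RPKM of 119. The row at chr16:20176150-20176234, antisense inside Yeats2, held 3 reads, and the other 7 rows held 0, among them chr2:80628705-80628790, where GENCODE places the gene. Reads were thus on 2 of 9 copies, and the annotated one was not among them.

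The hairpin of Mir684-1 shared 98.4% of its 25-base words with transcripts of Sumo2, which encodes a small ubiquitin-like modifier. The Sumo2 row itself was listed at 0 reads, as was the Mir684-1 row that lies inside it. The nearest row to the chromosome 5 placement, Kcnh2, lies 61977 bases away and held 1 read. How reads with several alignments were counted is not stated in the sources used here, so reads of Mir684-1 and of Sumo2 or its copies cannot be told apart.

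Mir544 held 42 reads (30.3 to 56.8) and an RPKM of 136, the highest of all members, on a row of only 20 bases at chr8:110161346-110161365. GENCODE places Mir544 at chr12:109729325-109729402, and neither of the 2 Mir544 rows lies there. The row with reads is antisense to Calb2, the calcium-binding protein calretinin, whose row held 0 reads. The value is therefore that of a 20-base interval on another chromosome than the gene.

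Mir703, at chr5:98475556-98475664 on the minus strand, held 27 reads (17.8 to 39.3) at an RPKM of 11. Of its 25-base words, 50.6% also occur in Eef1a1, the translation elongation factor, whose row held 134 reads. It lies antisense inside 1700007G11Rik (now Cfap299), whose row also held 27 reads. Whether the same reads were counted in both rows was not tested, because the strand use of the counting is not given.

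Over all members with a sequence, 21 rows shared 50% or more of their words with 1 gene elsewhere, and 3 of these rows held 191 reads. The other 847 rows held 130 reads on 27 rows. Rows of genes that GENCODE places elsewhere numbered 180, and 4 of them held 207 reads. In the 691 rows placed where GENCODE has the gene, 29 held 752 reads, of which 592 were on Mir22hg. Mir1195 is the remaining misplaced row with a read: its row spans 907522 bases on chromosome 16, while GENCODE has the gene on chromosome 17.

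Apart from these, 11 microRNA rows had reads, and all but 3 of them a single read. Mir1931, in an intron of the cyclin-dependent kinase gene Cdk17, held 7 reads (2.81 to 14.4; RPKM 3.34) at chr10:93162785-93162903. It lies 78439 bases from the 3′ end of Cdk17, whose row held 238 reads. Mir1249 held 6 reads (2.20 to 13.1; RPKM 4.31) at chr15:84951526-84951623 in 5031439G07Rik, whose row held 182 reads. It is intronic in the protein-coding transcripts and exonic in a GENCODE transcript that retains the intron. Mir1982 held 2 reads in Oaz1, the ornithine decarboxylase antizyme, whose row held 1000 reads.

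Single reads were found on Mir142, Mir190 (Mir190a), Mir212, Mir222, Mir365-1, Mir1929, Mir3064 and Mir3083. Mir142, a microRNA abundant in blood cells, lies at chr11:87756864-87756927 in an intron of its noncoding host Mir142hg. Mir222, which shares its seed with Mir221, lies at chrX:19146893-19146971, and Mir221 beside it held 0 reads. Mir3064 overlaps an exon of Ddx5, an RNA helicase of the Drosha complex, whose row held 3031 reads. At 1 read the interval runs from 0.0253 to 5.57, so these rows do not differ from rows at 0 beyond counting error.

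Of 18 granulocyte and myeloid microRNAs found in the table, 16 held no read, and Mir142 and Mir222 held 1 each. Among all microRNA rows, 714 of 733 held no read, so the list did not stand out for its rows at 0. Mir223, a microRNA known for its high level in granulocytes, held 0 reads inside the noncoding row F630028O10Rik, which held 342 reads (307 to 380; RPKM 8.29). Mir21 (Mir21a) held 0 reads inside Vmp1, which held 2251 reads (2159 to 2346; RPKM 50.1). Mir15a and Mir16-1 held 0 inside Dleu2, which held 399 reads (361 to 440; RPKM 14.6). Mir155 and Mir146, regulators of inflammatory signalling, also held 0. The overlapping transcript was read in each of these 3 host pairs, and the hairpin rows held 0 reads. How reads that overlap several rows were counted is not stated in the sources used here. A row at 0 therefore does not show that no tag fell on the hairpin.

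All 11 let-7 rows held 0 reads, including Mirlet7g inside Wdr82 (221 reads) and Mirlet7f-2 inside Huwe1 (272 reads). MicroRNAs known from other cells were at 0 as well. These were 11 rows of epithelial, 6 of smooth muscle and fibroblast, 6 of neuronal, 6 of striated muscle, 3 of erythroid, 1 of endothelial and 1 of liver microRNAs. At this depth and with this priming, neither granulocyte microRNAs nor those of other cells were detectable beyond 1 read a row.

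Among snoRNAs, Snora78, an H/ACA snoRNA, held the most reads. It had 29 reads (19.4 to 41.6), a mean of 4.83 per library and an RPKM of 9.02, on a row at chr17:24719676-24719832, minus strand. The row is longer than the snoRNA printed above, which GENCODE has at 24719676-24719803. On the minus strand, the extra bases of the row lie before the 5′ end of that snoRNA. The Snora78 row lies inside the noncoding row Snhg9, 145 bases from the 3′ end of Snhg9, which held 24 reads at an RPKM of 7.0. On the other strand GENCODE has Rps2, a protein of the small ribosomal subunit, over the locus. The Rps2 row itself held 885 reads, and the locus does not lie wholly inside that row. How reads that overlap several rows or the other strand were counted is not stated in the sources used here. By GENCODE the Snora78 row lies in an intron of Snhg9. Whether any read was counted in both rows was not tested, and neither was the part of Rps2 in the Snora78 reads.

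The other H/ACA snoRNAs had few reads. Snora30 held 5 (1.62 to 11.7; RPKM 1.79) at chr7:127527897-127528003, in an intron of the chromatin remodeller Srcap by GENCODE. Snora31 held 4 (1.09 to 10.2; RPKM 1.31) at chr14:75847923-75848034, in an intron of Tpt1, 269 bases from the end of the host, whose row held 26 reads. Snora21 in Rpl23, Snora33 in Rps12 and Snora81 in Eif4a2 held 1 read each, as did Snora68. The host rows of the first 3 held 3020, 3 and 83 reads in that order, so a snoRNA read occurred with hosts at both ends of that range.

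Of the C/D snoRNAs, Snord47 held 4 reads (RPKM 3.42) at chr1:161038092-161038156, in an intron of Gas5, a noncoding snoRNA host whose row held 458 reads. Snord65 held 4 reads (RPKM 4.47) at chr11:62604530-62604586, 220 bases from the end of 2410006H16Rik, whose row held 713 reads. Its neighbours in that host, Snord49a and Snord49b, held 0. Snord38a, Snord55 and Snord87, the last in Snhg6 (12 reads), held 1 read each. Scarna2 held 9 reads (4.12 to 17.1; RPKM 9.74) on a 61-base row at chr3:108554342-108554402 that lies in no other row of the table. Scarna17 held 2 reads on chromosome 18.

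Reads per library could be solved for 27 of the 33 rows, those with 29 reads or fewer except Mir17hg, Mir143hg and Mir1195, because a read is worth a different RPKM in each library. The libraries are named by depth, since they are not assigned to samples. From the shallowest to the deepest, Snora78 had 0, 7, 1, 0, 11 and 10 reads. Mir703 had 1, 2, 1, 1, 10 and 12 reads. Both had the most reads in the 2 deepest libraries, as counts not divided by depth, and Mir703 was present in all 6. Relative to depth, Snora78 was highest in the library of 2070936 reads, where it had 7.

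Scarna2 had 5 reads in the shallowest library, 4 in the second deepest and 0 in the other 4. All 5 reads of Snora30 and both reads of Scarna17 lay in the second deepest library. Mir1249 had 4 reads in the shallowest library and 2 in the deepest. These 4 loci were thus seen in 1 or 2 libraries only. Whether reads copied from 1 molecule were collapsed is not stated in the sources used here. Snord47 had 1 read in each of 4 libraries and Mir1931 had 1, 3, 1 and 2 reads in 4 libraries. For Mir544, 2 splits fitted its values, and both had reads in all 6 libraries. Over the 27 rows, the libraries held 12, 13, 6, 10, 39 and 37 of 117 reads, and the 2 deepest libraries hold 51.8% of the summed depth.

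**Figure D2:**
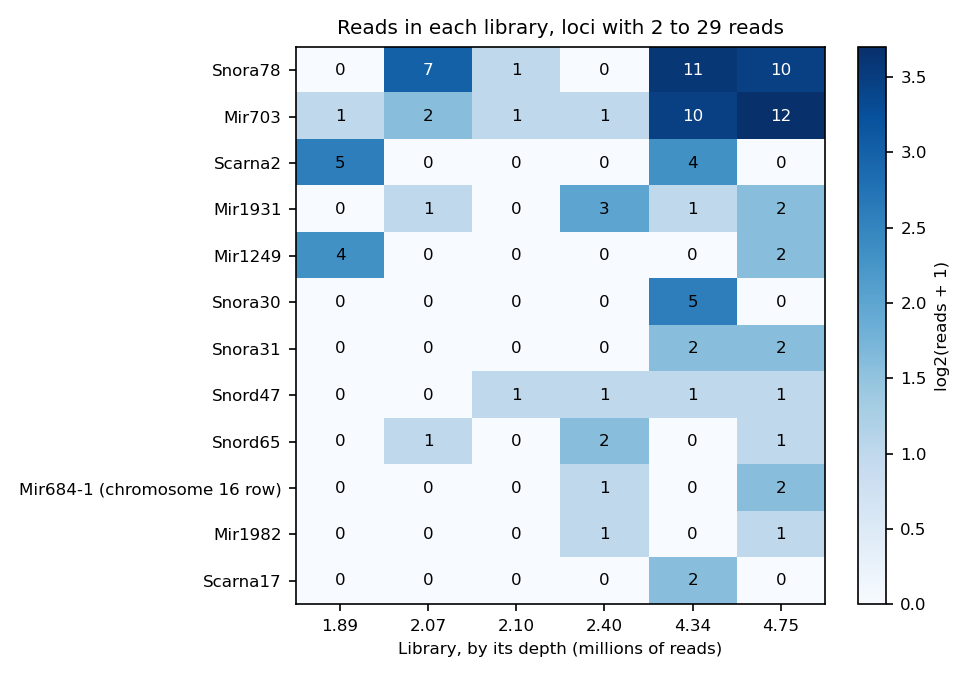
Whole reads (numbers; shade: log2 of reads + 1) in each of the 6 libraries, ordered by depth, for the 12 loci with 2 to 29 reads whose reads could be solved. Snora78 and Mir703 have the most reads in the 2 deepest libraries, as counts not divided by depth, while Snora30 and Scarna17 lie in 1 library.

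Position inside a protein-coding gene was then compared with reads. Of the 883 rows, 378 lay wholly inside a protein-coding row on the same strand: 294 microRNA, 27 H/ACA, 51 C/D and 6 scaRNA rows, in 273 host rows. Of these, 13 (3.44%, 1.84 to 5.81) held 28 reads. Of the 505 rows outside, 20 (3.96%, 2.44 to 6.05) held 931 reads. Among all 883 rows, 55 that are no host transcript rows span over 300 bases, 1 of them with a read. Such a row can reach past the ends of a host and then counts as outside. The median was 0 reads in both sets, and the intervals of the shares overlapped. Most of the reads outside lay on Mir22hg, Mir684-1 and Mir544. A further 65 rows lay inside a protein-coding row on the other strand only, 3 of them with 72 reads, and 92 rows lay inside another noncoding row, 5 of them with reads.

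By class, 6 of the 294 microRNA rows inside a protein-coding row had a read (2.04%) and 13 of the 439 outside (2.96%). For H/ACA snoRNAs these were 5 of 27 and 2 of 10, and for C/D snoRNAs 2 of 51 and 3 of 53. Among scaRNAs, 0 of 6 inside and 2 of 3 outside had a read. No row inside a protein-coding row held more than the 7 reads of Mir1931.

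The median of the 273 host rows was 72 reads, and 278 of the 378 members had a host with reads. A read was found on 0 of 100 members in hosts at 0 reads, 2 of 44 in hosts with 1 to 9, 3 of 98 with 10 to 99, 5 of 109 with 100 to under 1000 and 3 of 27 with 1000 or more (11.1%, 2.35 to 29.2). The 100 members in hosts at 0 reads name 58 genes, and 60 of these rows lay in Sfmbt2. Spearman's correlation between locus reads and host reads was 0.116 over the 378 members, which share libraries and in part hosts. With 365 of them at 0, this is no finding. Snord16a held 0 reads inside Rpl4, the host with the most reads at 58072. Mir5107 inside Cd74 (12180 reads) and Mir5130 inside Kctd12 (7405 reads) held 0 as well.

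**Figure D3:**
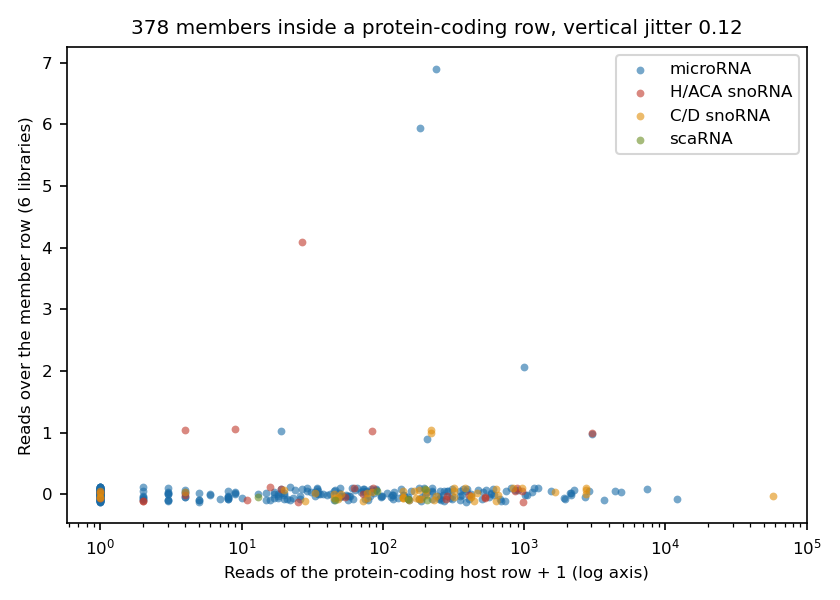
Reads over each of the 378 members inside a protein-coding row (vertical axis, jittered) against reads of the host row plus 1 (log axis), coloured by class. Of them, 365 lie at 0 whatever the host, and the highest, Mir1931 and Mir1249, have hosts of 238 and 182 reads.

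The share of members with a read was then set out by distance from the 3′ end of the host, the end from which CEL-Seq primes. Within 500 bases of the host's 3′ end, 3 of 11 members had a read (27.3%, 6.02 to 61.0). The share was 3 of 43 from over 500 to 2000 bases (6.98%), 5 of 97 from over 2000 to 10000 bases (5.15%) and 2 of 227 beyond (0.881%, 0.107 to 3.15). Those 227 rows name 183 genes in 145 hosts, so repeated placements are counted more than once and the intervals treat them as independent. The 3 with a read within 500 bases were Snora33, Snora31 and Mir1982, at 164, 269 and 420 bases, all intronic in the protein-coding transcripts. Others as near held 0 reads, among them Mir147 at 195 bases in AA467197 and Mir21 at 202 bases in Vmp1, both exonic. The intervals of the nearest and the farthest bin did not overlap, with 11 members in the nearest. Host reads were not held constant between these bins.

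**Figure D4:**
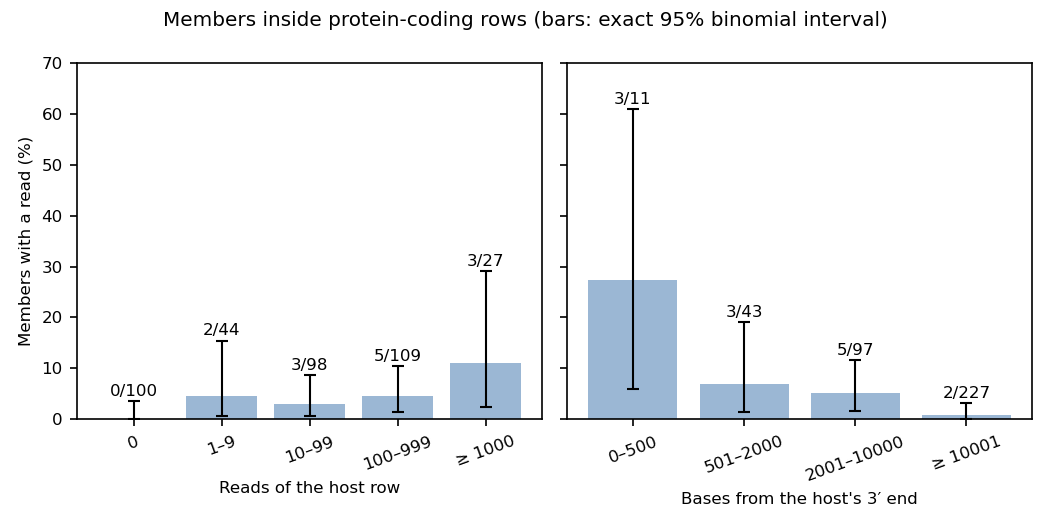
Percent of members inside protein-coding rows that held a read (bars, with exact 95% binomial intervals and counts above), by reads of the host row (left) and by distance from the host's 3′ end (right). The share is 27.3% within 500 bases of the 3′ end and 0.881% beyond 10000 bases. The 227 rows beyond 10000 bases name 183 genes in 145 hosts.

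By GENCODE, 322 of the 378 members are intronic in the protein-coding transcripts, 26 are exonic, 26 overlap an exon in part and 4 have no such transcript. Reads were found on 12 intronic and 1 partly exonic member and on 0 of the 26 exonic ones. How a read over both a member and a host exon was counted is not stated, and its part in this was not tested. Among the 54 members that are exonic in a transcript annotated as retaining an intron, 6 had a read (11.1%, 4.19 to 22.6), against 7 of the other 324 (2.16%, 0.873 to 4.40). The 324 rows name 280 genes, as some genes have several placements. This split was chosen after the values were seen. The 6 were Mir1249, Mir1982, Snora33, Snora68, Snora81 and Snord38a.

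In the table, 17 hosts held 3 members or more each, 131 members in all, and 1 of these, Snord65, had reads, beside 3.74% of all members. Of the 131 rows, 87 lay in 6 hosts that were themselves listed at 0 reads. Mcm7, a helicase subunit of DNA replication, held 308 reads while Mir25, Mir93 and Mir106b in its intron held 0. Rpl13a held 137 reads with 5 members at 0, Snhg12 held 42 with 4 at 0, and Wdr43 held 319 with 3 at 0. Sfmbt2, listed at 0, carried 60 of those 87 rows, many of them repeated placements of Mir467a genes.

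The genes that make and use these RNAs were measured as ordinary messages, and their levels are compared here by RPKM. Of 18 microRNA pathway genes, 17 had reads, 9 had an RPKM of 1 or more, and the median was 1.06. Over all rows of the table, 59.4% had reads and 26% had an RPKM of 1 or more. Tnrc6a, the scaffold that recruits deadenylases to Argonaute, was highest at 7.70. Tut4, which adds uridines to microRNA precursors, followed at 4.25, with Ago1 at 3.76 and Ago4 at 3.4. Ago2, the slicing Argonaute, stood at 0.202, Ago3 at 0.271, Dicer1 at 1.43, Drosha at 0.138, its partner Dgcr8 at 0.0931 and the hairpin exporter Xpo5 at 0.271. Tarbp2, a Dicer cofactor, held 0 reads. By RPKM, the 4 Argonaute genes thus spread over the range from the level of Drosha and Xpo5 to above that of Dicer1. Dividing by transcript length lowers long 3′-tagged transcripts, so ranks by RPKM and by reads can differ. By reads, Ago1 held 477, Ago4 344, Ago3 50 and Ago2 31, beside 260 for Dicer1, 22 for Xpo5 and 13 for Drosha.

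Of 15 snoRNP genes, all had reads, 7 had an RPKM of 1 or more, and the median was 0.805. Ruvbl2, an assembly factor, stood at 19.9, but Ruvbl1 at 0.142. The H/ACA core proteins Nop10 and Nhp2 stood at 9.91 and 4.76, but Gar1 and Dkc1 of the same core at 0.805 and 0.696. Among C/D core proteins, Nop58 stood at 6.05, Snu13 at 1.35 and Nop56 at 1.29. Fbl, the methyltransferase of C/D particles, held 1 read at 0.0760. All 17 snoRNA host genes had reads, and 16 had an RPKM of 1 or more, with a median of 6.44. Rack1 stood at 127, Snhg1 at 93.9, Eef2 at 43.1, Snhg3 at 27.9 and Gas5 at 11.1. Host genes were thus read in libraries in which 136 of 150 snoRNA and scaRNA rows held no read.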

How the data were processed

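The 2 samples of 1 group were deposited as 1 table of RefSeq transcript rows in mm10. Per the submitters' processing notes, STAR 2.4.2a and DESeq were used; the read counter, its strand use, its treatment of reads with several alignments and the annotation release are not stated in the sources used here. The read totals (signal) deposited by the authors are means over 6 libraries: 100% of them times 6 are whole within 0.0001. Per the file headers, the RPKM values were computed by the authors; the reads of single-read rows returned the 6 library depths (143 of 163 such rows of 1500 bases or less lay at a depth). Dividing by transcript length lowers long 3′-tagged transcripts. There were 0 columns of other samples.

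Members were found by symbol pattern, and a member lay inside a row when it was whole between its start and end on the same strand. Symbols were updated for 34 rows. Exons, introns and gene positions came from GENCODE M21 (mm10), which placed 691 member rows as the table does. Words of 25 bases were compared with all its transcripts for 868 rows with a sequence, and no genome sequence was used. Reads per library were solved from read total, RPKM and depths at a relative tolerance of 1e-07. On simulated loci of 2 to 10 and 11 to 30 reads, 100% of true splits were returned. Intervals are exact (Poisson, Clopper-Pearson) at 95%, two-sided; the limit of 3 reads for a count of 0 is one-sided, and the two-sided interval at 0 ends at 3.69. Loci are not replicates, so no test was made.

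Named loci were the 15 microRNA and 10 snoRNA or scaRNA rows with the most reads (with ties, all 33 with a read), listed microRNAs, hosts with 3 members or more, and 3 loci at 0 in the most read hosts. The hosts of some named loci are not reported here. The members and lists were chosen with earlier results of these data known. Scripts ran in Python 3.11.15 with scipy 1.17.1, numpy 2.4.6, matplotlib 3.10.9 and pandas 2.3.3.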

Additional observations from a re-analysis of the deposited data

How the results depend on the processing

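The 33 rows with a read became 17 at a minimum of 2 reads, 15 at 3, 7 at 10 and 18 at an RPKM of 1. They were 30 without the 3 host transcript rows and 29 without rows that GENCODE places elsewhere. The 378 members inside protein-coding rows became 443 on either strand, 400 by any overlap and 464 with other noncoding rows as hosts. The difference in reads per row, inside minus outside, was 0 by medians. It was -1.77 by means and -3 by medians of rows with reads. By means without host transcript rows and misplaced rows, it was -0.139. The share of reads on members, 0.0118%, was 0.0124% with 1 row per gene, 0.00453% without Mir22hg and 0.00396% without the 3 host transcript rows, so it rests on these. The Spearman correlation of locus and host reads ranged from 0.116 to 0.151. The count of 27 solved rows did not move at the 2 wider tolerances. The alternatives without host transcript or misplaced rows, at 2 reads and at wider tolerances were chosen after seeing the data. Leaving out each sample was not run, since the values used are means over both samples. No paired analysis was possible because there is 1 group. Depth limits all single-read rows: 1 read has an interval of 0.0253 to 5.57.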

Other observations

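Of 8 small RNAs of other families, which are no members, 5 held reads, none of them more than 12. Vaultrc5, a vault RNA, held 12 reads (6.2 to 21; RPKM 2.14), and Rnu11 and Rnu12, small nuclear RNAs of the minor spliceosome, held 8 and 2. Rmrp and Rpph1, the RNA subunits of RNase MRP and RNase P, held 3 and 1. Terc, the telomerase RNA, and the small nuclear RNAs Rnu6 and Rnu7 held 0. These genes were chosen after the table was seen, so their count is not a share of such rows. Among the 30 other rows of 300 bases or less, 3 (10%) had a read, and these were Rnu11, Rnu12 and Rmrp.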
